A study of Mus musculus with 6 samples.

Results

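Genes of the diaphragm's connective tissue and of its mesothelial covering were followed in RNA of embryonic mouse diaphragm muscle. The set was named gene by gene and holds 10 of the 23073 genes with a value in every library. Of these, 6 encode nuclear regulators that act in the pleuroperitoneal folds (Gata4, Gata6, Wt1, Zfpm2, Nr2f2 and Tcf21), and 4 encode proteins of the mesothelial surface (Msln, Upk3b, Upk1b and Lrrn4). RNA-Seq was performed on 6 libraries of diaphragm at E14.75, with 2 libraries in each of 3 groups. The erbB3 WT group (replicates 5 and 6) was total RNA of muscle with Schwann cells. The erbB3 mutant group (replicates 1 and 2) was total RNA of muscle from embryos homozygous for a constitutive loss of the neuregulin receptor gene erbB3, which lack Schwann cells along their nerves. The Wnt1-Ribotag group (replicates 1 and 2) is labelled as carrying normal erbB3, the Wnt1-Cre driver and the Ribotag allele, which adds a hemagglutinin epitope to the ribosomal protein Rpl22 wherever Cre is active. Its RNA was what came down with antibodies to that epitope from pooled diaphragms of a litter. The litter was dissected and homogenized before genotyping, which found Cre in only some of its embryos, and the methods do not say plainly whether Cre-negative diaphragms were in the pool. Far less RNA entered those libraries than entered the libraries of whole muscle. Wnt1-Cre is active in the neural crest lineage, which gives rise to Schwann cells.

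The pleuroperitoneal folds are paired embryonic ridges that spread over the future diaphragm, form its connective tissue and central tendon, and guide the muscle precursors that migrate into it. GATA4 and GATA6 are zinc-finger factors, ZFPM2 (also called FOG2) is a cofactor that binds GATA factors, and WT1 and the nuclear receptor NR2F2 (COUP-TFII) are active in the folds and in the mesothelium derived from the same coelomic lining. Loss of several of these genes causes congenital diaphragmatic hernia. Mesothelial cells are the flat epithelium on the pleural and peritoneal faces of the muscle, where mesothelin (Msln), the uroplakins Upk3b and Upk1b and the leucine-rich repeat protein Lrrn4 are commonly used as markers. The question here was how the fold regulators and the mesothelial surface genes each stood in muscle with Schwann cells, in muscle without them, and in RNA recovered with tagged ribosomes.

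Levels are given as RPKM, which corrects read numbers for the length of the gene and the size of the library, so that levels can be set side by side between genes. The depth read from the values of genes without reads was between 100178863 and 230216660 mapped reads per library. The WT pair and the mutant pair agreed more closely (Pearson's r = 0.990 and 0.986 over 14320 genes) than the Ribotag pair (r = 0.931). The median difference between replicates over all genes was 0.13 in WT, 0.19 in mutant and 0.39 in Ribotag on the log2 scale. Erbb3 itself did not separate the genotypes by its level (16.5 and 15.8 in WT, 21.5 and 11.9 in mutant, 19.5 and 25.3 in Ribotag). Sox10, a transcription factor of Schwann cells, was at 2.89 and 2.16 RPKM in WT, 0.00854 and 0.0178 in mutant and 15.5 and 32.2 in Ribotag, in the order given by the labels. The 12 skeletal muscle markers summed to 3561 and 2860 RPKM in WT, 6080 and 4159 in mutant and 3255 and 2973 in Ribotag, so that both mutant sums lay above all others. The largest part was Mylpf (1293 and 995 in WT, 2325 and 2068 in mutant). Both mutant values lay above both WT values for 4 of the 12, as for 12.7% of all genes tested. They lay below them for 0, as for 37.4% of all genes. Acta1 was at 796 and 671 in WT and at 1315 and 507 in mutant. Markers of liver, which lies against the diaphragm, summed to 513 and 155 RPKM in WT, 18.3 and 10.4 in mutant and 294 and 208 in Ribotag over 11 genes. In whole tissue and in pulled-down RNA alike, fewer cells of a type and less RNA per cell cannot be told apart.

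All 10 genes were above the floor value of a gene without reads in all 6 libraries. In WT muscle Upk3b had the highest level (55.9 ± 5.45 RPKM, SD, n = 2) and Tcf21 the lowest (1.11 ± 0.15). Below Upk3b stood Lrrn4 (32.3 ± 4.84), Gata4 (28.9 ± 2.49) and Wt1 (28.7 ± 2.61), whose ranges overlapped from each to the next. They were followed by Gata6 (20.5 ± 1.36), Nr2f2 (8.72 ± 1.34), Zfpm2 (6.02 ± 0.669), Upk1b (5.84 ± 0.721) and Msln (3.60 ± 0.772), of which Zfpm2 and Upk1b overlapped. In mutant muscle the order from Upk3b down to Nr2f2 was the same, but Lrrn4 did not overlap Gata4. Upk1b, Msln and Zfpm2 came below Nr2f2, and Tcf21 was last. Msln overlapped both Upk1b and Zfpm2, which did not overlap each other. In Ribotag RNA, Upk3b (29.8 ± 10.4) was again first and Tcf21 (0.874 ± 0.583) last. Wt1 (19.4 ± 1.39) and Gata4 (17.8 ± 3.99) overlapped behind Upk3b there, and Lrrn4 (12.3 ± 1.92), Nr2f2 (11.6 ± 4.18) and Gata6 (8.78 ± 0.414) overlapped from each to the next.

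**Figure D1:**
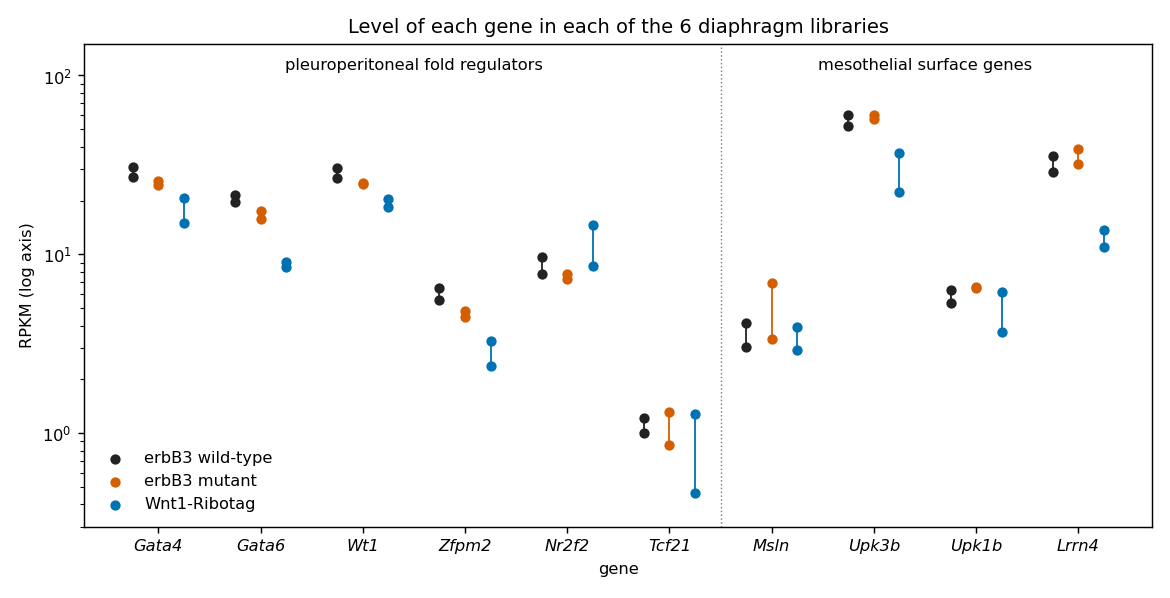
RPKM of each gene (log axis) in each of the 6 libraries, with the points of a group joined by a line, black for erbB3 WT, orange for erbB3 mutant and blue for Wnt1-Ribotag. Gata4, Gata6, Wt1, Zfpm2, Upk3b and Lrrn4 have both Ribotag points below both WT points, while the Ribotag points of Nr2f2, at 8.66 and 14.6, do not lie below its WT points.

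Among the fold regulators, Gata4 (ENSMUSG00000021944; GRCm38 chr14:63198922-63271692) was at 30.7 and 27.1 RPKM in WT, 25.7 and 24.4 in mutant and 20.6 and 14.9 in Ribotag. Its relative Gata6 (ENSMUSG00000005836; chr18:11052064-11085635) was at 19.5 and 21.5 in WT, 15.8 and 17.5 in mutant and 9.08 and 8.49 in Ribotag. For both GATA genes the 3 groups stood apart in the same order, WT highest and Ribotag lowest. The cofactor gene Zfpm2 (ENSMUSG00000022306; chr15:40655035-41104592) followed that order at lower levels, with 5.55 and 6.49 in WT, 4.47 and 4.85 in mutant and 3.30 and 2.39 in Ribotag. Wt1 (ENSMUSG00000016458; chr2:105126529-105173616), a zinc-finger regulator of the coelomic lining, was at 26.9 and 30.6 in WT, 25.0 and 24.8 in mutant and 18.5 and 20.4 in Ribotag. As deposited, these 4 genes had no overlap between any pair of groups, with WT highest and Ribotag lowest. The same held for 5.9% of the 14320 genes whose mean over the 6 libraries reached 0.5 RPKM. In any order of the groups, 20.1% had no overlap between any pair.

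Nr2f2 (ENSMUSG00000030551; chr7:70351944-70366735) went another way. It was at 7.77 and 9.67 RPKM in WT and at 7.72 and 7.30 in mutant, but at 8.66 and 14.6 in Ribotag. The Ribotag values lay above both mutant values and overlapped the WT values. Tcf21 (ENSMUSG00000045680; chr10:22817281-22820174), a basic helix-loop-helix factor of fibroblast progenitors, was at 1.0 and 1.21 in WT, 0.860 and 1.32 in mutant and 0.462 and 1.29 in Ribotag, so that its groups overlapped throughout. Even its lowest value corresponded to 56.7 reads per kilobase of gene.

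For 0 of the 4 mesothelial surface genes did both mutant values lie below both WT values, as they did for 37.4% of all genes tested. Upk3b (ENSMUSG00000042985; GRCm38 chr5:136038496-136046487) was at 59.8 and 52.1 RPKM in WT, 60.4 and 57.3 in mutant and 37.1 and 22.4 in Ribotag. Lrrn4 (ENSMUSG00000043110; chr2:132868305-132880891) was at 35.7 and 28.8 in WT, 39.0 and 32.1 in mutant and 13.6 and 10.9 in Ribotag. Both genes overlapped between WT and mutant, and both were lower in the 2 Ribotag libraries than in any other. Upk1b (ENSMUSG00000049436; chr16:38773184-38800328), which encodes a tetraspanin, was at 6.35 and 5.33 in WT, 6.54 and 6.51 in mutant and 3.66 and 6.16 in Ribotag. Its mutant values exceeded both WT values by a narrow margin. Msln (ENSMUSG00000063011; chr17:25748613-25754378) was at 4.15 and 3.05 in WT, 6.87 and 3.37 in mutant and 3.93 and 2.91 in Ribotag, and mutant 1 alone set its mutant mean apart.

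Promoter sequence is shown for the pair of surface genes with the largest differences in Ribotag RNA and for Nr2f2, the regulator with the opposite sign there. RefSeq promoters on GRCm38.p6 were matched for 4 of the 10 genes (these 3 and Tcf21), and each sequence below gives the 250 bases before the start of the RefSeq gene, 5′ to 3′ on the gene's strand. For Lrrn4 and Tcf21 the GENCODE gene printed above starts further upstream, so that the last bases of the window lie inside it. They lie at chr2:132880863-132881112 on the minus strand for Lrrn4, chr5:136038246-136038495 on the plus strand for Upk3b and chr7:70366747-70366996 on the minus strand for Nr2f2. Capitals mark matches to GATAA (GATA factors), GGAATG (TEAD factors) and GTGGGNG (WT1), searched on both strands.
Lrrn4: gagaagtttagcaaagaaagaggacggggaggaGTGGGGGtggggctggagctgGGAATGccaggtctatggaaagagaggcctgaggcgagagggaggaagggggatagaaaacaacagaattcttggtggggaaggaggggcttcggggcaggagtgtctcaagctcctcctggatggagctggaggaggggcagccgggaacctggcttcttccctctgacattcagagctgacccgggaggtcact
Upk3b: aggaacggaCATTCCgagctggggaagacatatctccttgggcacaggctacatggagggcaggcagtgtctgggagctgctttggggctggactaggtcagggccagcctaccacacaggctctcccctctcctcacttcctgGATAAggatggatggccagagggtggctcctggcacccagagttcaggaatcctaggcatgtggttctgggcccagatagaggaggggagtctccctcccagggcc
Nr2f2: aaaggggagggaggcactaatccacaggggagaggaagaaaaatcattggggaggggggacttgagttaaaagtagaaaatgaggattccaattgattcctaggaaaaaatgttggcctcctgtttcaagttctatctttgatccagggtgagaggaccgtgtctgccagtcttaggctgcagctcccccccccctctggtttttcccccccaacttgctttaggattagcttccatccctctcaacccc

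Lrrn4 held GTGGGNG from -217 to -211 and GGAATG from -196 to -191 relative to its start. Upk3b held GATAA from -106 to -102 and GGAATG on the other strand from -241 to -236. Nr2f2 held none of these letters in this window, and Tcf21 held GATAA from -30 to -26, inside its GENCODE gene. Over 32851 promoters of the same length, GATAA was found in 22.6%, GGAATG in 12.6% and GTGGGNG in 28.1%, so that matches of this kind are common. The GC content was 59.2% for Lrrn4, 60.8% for Upk3b, 50% for Nr2f2 and 52.4% for Tcf21, against a median of 52.4% over all promoters. A match is a description of the letters and not a binding site.

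Comparison of mutant with WT muscle asked whether either set differed when Schwann cells were missing. Levels in mutant muscle were 86.8% of WT for Gata4, 81.3% for Gata6, 86.7% for Wt1, 77.4% for Zfpm2, 86.2% for Nr2f2 and 98.6% for Tcf21. For the surface genes they were 142% for Msln, 105% for Upk3b, 112% for Upk1b and 110% for Lrrn4. With limma on log2(RPKM + 0.5), in which a fold change understates that of low genes, 0 of the 10 genes passed an adjusted p of 0.05, against 0.171% of all genes tested (24 of 14052). At an unadjusted p under 0.05 the count was also 0 of 10, against 1691 of all genes. The furthest from 0 among the regulators were Zfpm2 (log2 fold change -0.33, SE 0.15, 95% interval -0.69 to 0.02, adjusted p = 0.422) and Gata6 (-0.29, SE 0.14, interval -0.60 to 0.02, adjusted p = 0.424). Msln had the largest value of the surface genes (0.40, SE 0.29, interval -0.28 to 1.07, adjusted p = 0.542), and without mutant 1 it was -0.07. Without WT 6 the values of Upk3b and Lrrn4 were -0.02 and -0.01, so that the sign of 3 of the 4 surface genes depended on a single library.

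By the overlap of libraries, 5 of the 6 regulators (all except Tcf21) were lower in both mutant libraries than in both WT libraries, and 1 of the 4 surface genes (Upk1b) was higher. Of all genes tested 37.4% were lower in that way and 12.7% higher, and the median of all genes was -0.10, so that a lower value in the mutant was common. None of the 10 was at least 2-fold lower in all 4 pairs of libraries, which was true of 0.399% of all genes. The median log2 fold change was -0.20 over the regulators and 0.15 over the surface genes. Scaling by the median of gene ratios brought the median of all genes to 0.004 and left 2 regulators (Gata6 and Zfpm2) lower without overlap, against 23.2% of all genes, and 2 surface genes (Upk3b and Upk1b) higher, against 23.8%. Quantile normalization left 4 regulators lower (Gata4, Gata6, Wt1 and Zfpm2), against 23.9% of all genes, and Upk1b higher, against 21.9%. Tcf21 turned to 0.06 and 0.15 under these scalings, while the other 9 genes kept their sign.

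**Figure D2:**
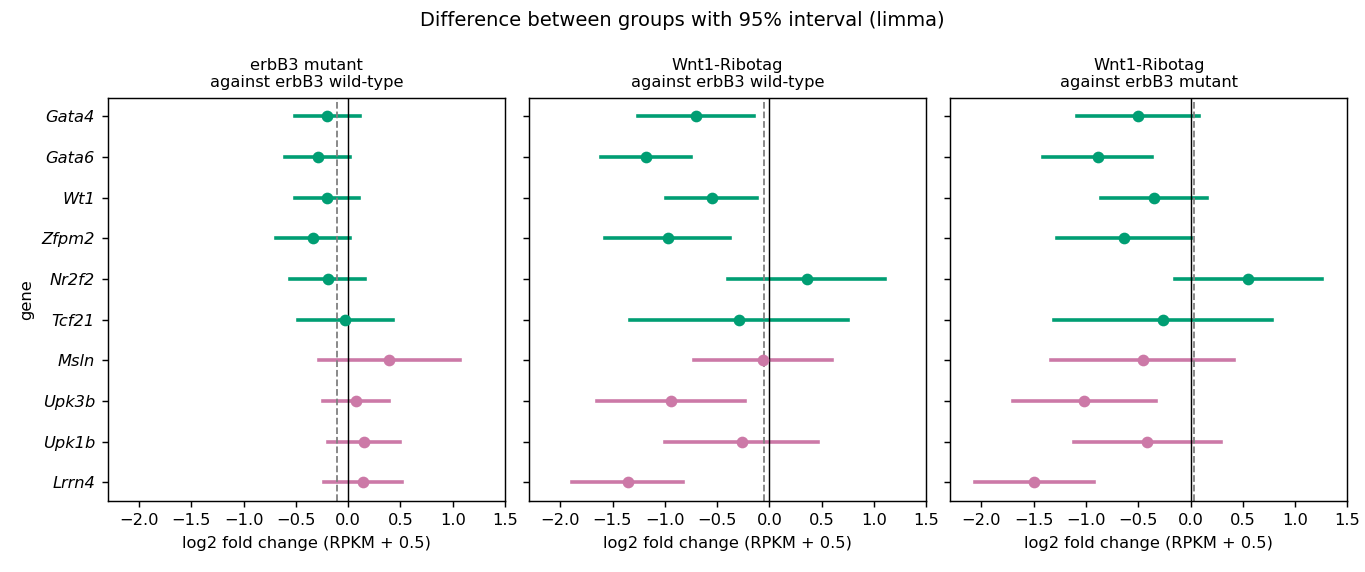
Log2 fold change of RPKM + 0.5 for each gene in the 3 comparisons, with 95% intervals from limma, green for fold regulators and pink for mesothelial surface genes, and a dashed line at the median of all genes tested. In the mutant all 10 intervals include 0, and in both Ribotag panels Lrrn4 lies furthest to the left (-1.36 and -1.50).

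Tagged-ribosome RNA was then set against WT muscle. The RNA recovered by way of the neural crest driver still held every fold and mesothelial gene, at 61.4% of the WT level for Gata4, 42.8% for Gata6, 67.6% for Wt1, 47.2% for Zfpm2 and 79.0% for Tcf21. Nr2f2 stood at 133%. The surface genes were at 95% for Msln, 53.2% for Upk3b, 84.1% for Upk1b and 38.1% for Lrrn4. By limma 0 of the 10 genes passed the adjusted threshold, against 0.00694% of all genes (1 of 14418), and 6 of the 10 had an unadjusted p under 0.05, against 2813 of all genes. The largest differences were those of Lrrn4 (-1.36, SE 0.21, 95% interval -1.88 to -0.83, adjusted p = 0.148) and Gata6 (-1.18, SE 0.17, interval -1.61 to -0.75, adjusted p = 0.144). Zfpm2 (-0.97, SE 0.23, adjusted p = 0.179), Upk3b (-0.94, SE 0.28, adjusted p = 0.200), Gata4 (-0.70, SE 0.22, adjusted p = 0.207) and Wt1 (-0.55, SE 0.17, adjusted p = 0.210) made up the rest of the 6.

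Those 6 genes were also lower without overlap, 4 of 6 regulators and 2 of 4 surface genes, where 31% of all genes were lower and 23.3% higher. The same 6 were lower without overlap under median-ratio scaling and quantile normalization, and Nr2f2 was then higher without overlap under median-ratio scaling alone. Lrrn4 and Gata6 were at least 2-fold lower in all 4 pairs of libraries, as were 0.825% of all genes. Nr2f2 (0.36, SE 0.29, adjusted p = 0.535), Tcf21 (-0.29, SE 0.41), Upk1b (-0.26, SE 0.29) and Msln (-0.06, SE 0.26) could not be separated from 0 in that fit. Between the Ribotag libraries Nr2f2 differed by 0.72, Upk3b by 0.71, Upk1b by 0.68 and Tcf21 by 0.89 on the log2 scale, while Gata6 differed by 0.09 and Wt1 by 0.14. Without Ribotag 2 the value for Nr2f2 was -0.001, and without Ribotag 1 it was 0.72. With all 6 libraries in 1 fit, which shares the spread of the mutant pair, Gata6 and Lrrn4 passed the threshold (adjusted p = 0.0368 and 0.0397), among 138 of the 14418 genes. With Ribotag 1 left out the 6 lower genes lay between -1.51 (Lrrn4) and -0.48 (Wt1). With Ribotag 2 left out they lay between -1.20 (Lrrn4) and -0.48 (Gata4). The spread then came from the WT pair alone, and a large part of all genes passed the threshold. Tcf21 was at 0.16 without Ribotag 1 and -0.74 without Ribotag 2, and Upk1b at 0.08 and -0.60.

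Against mutant muscle, which shares the Ribotag libraries with the comparison above, Lrrn4 passed the test (-1.50, SE 0.24, 95% interval -2.06 to -0.93, adjusted p = 0.0469 by limma). It was the only one of the 10, against 1.19% of all genes tested (171 of 14325). That call was close to the threshold: the adjusted p was 0.0515 with a pseudocount of 1, 0.0537 with median-ratio scaling, 0.0680 with quantile normalization, 0.0669 without the trend and 0.0846 without a filter, 0.229 without mutant 1 and 0.135 without mutant 2. The value itself stayed between -1.63 and -1.36 in those fits. Lrrn4 was also the only one at least 2-fold lower in all 4 pairs, as were 0.607% of all genes. Next came Upk3b (-1.02, SE 0.29, adjusted p = 0.153) and Gata6 (-0.89, SE 0.22, adjusted p = 0.122). Lower without overlap were 4 of 6 regulators (Gata4, Gata6, Wt1 and Zfpm2) and 3 of 4 surface genes (Upk3b, Upk1b and Lrrn4), against 24.4% of all genes. Nr2f2 was higher without overlap (0.55, SE 0.29, adjusted p = 0.351), against 29.7% of all genes. With Ribotag 1 left out the values were -0.73 for Gata4, -0.93 for Gata6, -0.84 for Zfpm2, 0.91 for Nr2f2, -1.37 for Upk3b and -0.08 for Upk1b. With Ribotag 2 left out they were -0.28, -0.84, -0.44, 0.19, -0.66 and -0.76 in the same order. With all 6 libraries in 1 fit Gata6 passed as well (adjusted p = 0.0374), among 692 of the 14325 genes. With libraries of the same replicate number fitted as a block, Upk3b passed (adjusted p = 0.0420), among 842 of the 14325 genes.

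The sets were next contrasted with each other in each library. Summed over the 6 regulators the level was 91.4 and 96.6 RPKM in WT, 79.6 and 80.2 in mutant and 60.5 and 62.1 in Ribotag. The 4 surface genes summed to 105.9 and 89.3 in WT, 112.8 and 99.3 in mutant and 58.3 and 42.4 in Ribotag. As deposited, without further scaling between libraries, the sum of the regulators took 3 separate ranges, whereas that of the surface genes overlapped between WT and mutant and was lower in Ribotag. As a share, in which the scaling of a library cancels, regulators made up 46.3% and 52.0% of the summed level of the 10 genes in WT, 41.4% and 44.7% in mutant and 50.9% and 59.4% in Ribotag.

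**Figure D3:**
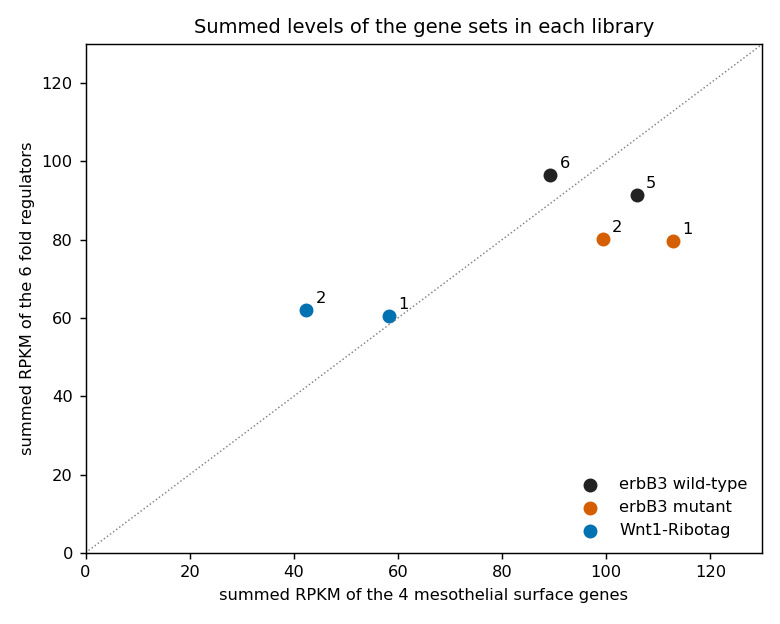
Summed RPKM of the 6 fold regulators against summed RPKM of the 4 mesothelial surface genes, 1 point per library with its replicate number, and a dotted line where the sums are equal. Mutant points lie below WT points on the vertical axis (79.6 and 80.2 against 91.4 and 96.6) but span much of the same horizontal range, and Ribotag points are lowest on both axes.

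On the log2 scale the mean of the regulators minus the mean of the surface genes was -0.64 and -0.22 in WT, -1.03 and -0.62 in mutant and -0.49 and -0.17 in Ribotag. Between mutant and WT this difference moved by -0.40, made of -0.21 for the regulators and 0.19 for the surface genes, and the WT and mutant ranges overlapped. With a library left out that value lay between -0.61 (without WT 5) and -0.19 (without WT 6), with -0.60 without mutant 2 and -0.20 without mutant 1. Between Ribotag and WT it moved by 0.10, with -0.56 for the regulators and -0.66 for the surface genes, and the ranges overlapped. It turned to -0.06 without Ribotag 2 and -0.11 without WT 5, and was 0.26 without Ribotag 1 and 0.31 without WT 6, so that it had no stable sign. Between Ribotag and mutant it moved by 0.50, with -0.35 and -0.85, and the ranges did not overlap (0.30 without mutant 1). No p is given for these values, since the genes are not replicates, and an exact permutation test of 2 libraries against 2 cannot go below 0.33.

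Ratios of levels between genes showed where each set was uneven. Gata4 stood at 1.57 and 1.26 times Gata6 in WT, 1.62 and 1.40 times in mutant and 2.27 and 1.76 times in Ribotag. The ratio of Nr2f2 to Gata6 was 0.398 and 0.450 in WT, 0.488 and 0.417 in mutant and 0.955 and 1.72 in Ribotag, so that both ratios were higher in Ribotag than in any library of whole muscle. Within the surface genes, Lrrn4 was at 0.597 and 0.554 of Upk3b in WT, 0.646 and 0.560 in mutant and 0.368 and 0.488 in Ribotag. Upk3b was between 8.81 and 10.1 times Upk1b in 5 libraries and 3.64 times in Ribotag 2. For Wt1 to Gata4 the ratio ranged from 0.877 to 1.37 and overlapped between WT, mutant and Ribotag.

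Other mesothelial genes were examined as a list of 20, of which 19 were found and tested. None passed the threshold in any comparison. In Ribotag RNA 13 of the 19 were lower than WT without overlap and 0 were higher, with a median of -0.70 (all genes -0.05), where 31% of all genes were lower and 23.3% higher. The same number, 13, was lower than mutant, with 1 higher and a median of -0.59 (all genes 0.04), where 24.4% of all genes were lower and 29.7% higher. In the mutant the list was near the median of all genes (-0.08 against -0.10). There 7 of the 19 were lower and 3 higher without overlap, close to the 37.4% and 12.7% of all genes. Podxl, a sialomucin of apical membranes, was at 44.6 and 41.6 RPKM in WT, 44.1 and 40.5 in mutant and 46.6 and 22.1 in Ribotag. Aldh1a2, the retinaldehyde dehydrogenase that makes retinoic acid in mesothelium, was at 33.6 and 36.6 in WT, 30.9 and 31.5 in mutant and 15.9 and 14.66 in Ribotag (-1.17 against WT, SE 0.16, adjusted p = 0.141). Podxl was thus low in Ribotag 2 only, and Aldh1a2 in both.

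A list of 28 other connective tissue and fold genes, all tested, had no gene past the threshold in any comparison either. In the mutant 12 were lower and 2 higher without overlap, where 37.4% and 12.7% of all genes were. A negative log2 fold change was found for 24 of 28 (median -0.22) and for 67% of all genes (median -0.10). Against WT, Ribotag RNA had 13 lower and 2 higher (median -0.33), where 31% and 23.3% of all genes were. Against mutant it had 9 lower and 5 higher (median -0.05), where 24.4% and 29.7% of all genes were. The matrix genes Postn and Dcn had the highest levels of this list. Postn, which encodes periostin, was at 311 and 354 RPKM in WT, 400 and 408 in mutant and 285 and 351 in Ribotag. Dcn, which encodes the proteoglycan decorin, was at 309 and 314 in WT, 356 and 364 in mutant and 167 and 170 in Ribotag. Unlike the fold regulators, Postn and Dcn were higher in both mutant libraries than in WT, and they were the only 2 of the 28 that were. Lum, a further matrix gene, overlapped, at 128 and 155 in WT and 148 and 169 in mutant. Gata5, named after its values were seen because it encodes a further GATA factor, was at 2.76 and 3.08 in WT, 1.52 and 1.89 in mutant and 1.13 and 0.546 in Ribotag. Its order of groups was that of Gata4 and Gata6, with -0.64 in mutant against WT (SE 0.17, adjusted p = 0.25) and -1.39 in Ribotag against WT (SE 0.32, adjusted p = 0.177). Zfpm1 and Nr2f1 of the same list did not have that order. Zfpm1 was at 5.63 and 5.88 in WT, 3.39 and 2.85 in mutant and 6.46 and 4.45 in Ribotag, and the groups of Nr2f1 overlapped throughout.

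Retinoid signalling, which the folds depend on, was followed with 19 genes, of which 18 were tested. All 18 had a negative log2 fold change in the mutant (median -0.30), as did 67% of all genes (median -0.10). Of the 18, 10 were lower without overlap, against 37.4% of all genes, and 0 passed the threshold. In Ribotag RNA 6 were lower and 4 higher than WT (median -0.28), against 31% and 23.3% of all genes. Against mutant 3 were lower and 6 higher (median 0.16), where 24.4% and 29.7% of all genes were, and 1 rose past the threshold. That gene was Rbp4 (1.57, SE 0.24, adjusted p = 0.0452), the plasma carrier of retinol and a major product of liver. The cellular carriers Crabp2 and Crabp1 had the highest levels, with Crabp2 at 53.6 and 49.9 RPKM in WT, 30.5 and 57.8 in mutant and 29.4 and 26.6 in Ribotag. Crabp1 was at 42.3 and 39.5 in WT, 29.3 and 55.9 in mutant and 32.7 and 20.5 in Ribotag. Both varied between the mutant libraries by more than any fold regulator did.

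**Figure D4:**
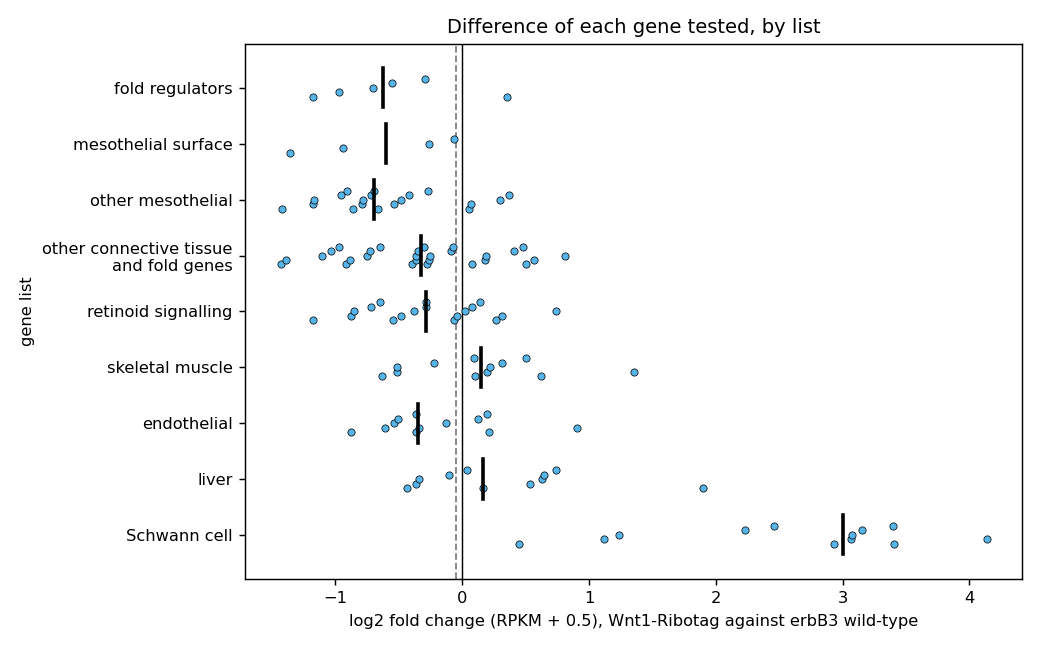
Log2 fold change of RPKM + 0.5 in Wnt1-Ribotag against erbB3 WT for the tested genes of the lists shown, in rows by list. Each gene has 1 point in every list that holds it, and the heart and lung lists are not drawn. A black bar marks each list's median and a dashed line the median of all genes (-0.05). Fold regulators, mesothelial surface genes and other mesothelial genes have medians of -0.63, -0.60 and -0.70, and the Schwann cell markers lie at the other end with a median of 3.0.

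Markers of other cell types differed between the groups alongside these genes. The 12 Schwann cell markers summed to 67.8 and 76.8 RPKM in WT, 53.5 and 33.3 in mutant and 238 and 630 in Ribotag, and none was at the floor. All 12 were higher in Ribotag than in WT without overlap, against 23.3% of all genes. In all 4 pairs of libraries 9 of the 12 were at least 2-fold higher, as were 218 of the 14418 genes tested. Ribotag 2 had the higher Schwann sum of that pair, the lower sum of surface genes (42.4 against 58.3) and a similar sum of regulators (62.1 against 60.5), and Wt1, Nr2f2, Tcf21 and Upk1b were each higher in it. The liver sums given above were highest in WT 5, lower in WT 6 and Ribotag, and lowest in mutant. Between WT 5 and WT 6 the liver sum differed from 513 to 155. Gata4 and all 4 surface genes were higher in WT 5 (by 0.17 for Gata4, 0.39 for Msln, 0.30 for Lrrn4, 0.23 for Upk1b and 0.20 for Upk3b on the log2 scale), and the other 5 regulators were higher in WT 6 (by 0.13 for Gata6, 0.18 for Wt1, 0.21 for Zfpm2, 0.30 for Nr2f2 and 0.19 for Tcf21). The 12 lung epithelium markers summed to 21.96 and 19.01 RPKM in WT, 15.4 and 15.0 in mutant and 15.7 and 14.6 in Ribotag, so that WT lay above both other groups, as it did for the sum of the regulators. Most of that sum was Etv5 (11.7 to 17.8) and Sox9 (1.14 to 3.19), regulators that are not particular to lung. The lung regulator Nkx2-1 was at most 0.00385, and 8 of the 12 were at the floor in at least 1 library. The part of the Schwann, liver, heart, lung, endothelial and muscle content in the levels of the fold and surface genes was not tested. Gata4 and Gata6 are also genes of the heart, and the 12 heart markers summed to 430 and 364 RPKM in WT, 682 and 628 in mutant and 381 and 445 in Ribotag. Most of that sum was Myl4 (284 to 578 RPKM), a myosin light chain that embryonic skeletal muscle also uses. Myh6 (10.96 to 24.5) and Myl7 (1.59 to 18.1) were present in every library. Hand2 (2.54 to 74.7) and Hand1 (0.00451 to 22.5), which are also genes of the neural crest lineage, were highest in Ribotag 2. Smpx (28.2 to 67.2), a small muscle protein, Tbx5 (2.41 to 4.41) and Tbx20 (0.267 to 0.933) were also present in every library. Nkx2-5, Nppa, Nppb and Irx4 were at most 0.0591, 0.157, 0.828 and 0.0102 RPKM in any library. The 12 endothelial markers summed to 113 and 122 RPKM in WT, 115 and 87.9 in mutant and 102 and 109 in Ribotag, so that both Ribotag sums lay below both WT sums and the mutant overlapped each. Different input, antibody recovery and pooling go with the Ribotag group throughout, and cannot be told apart from the source of its RNA.

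Genes whose pattern over the 6 libraries was most like the mean of each set were ranked by Pearson's r among 4804 genes with a range of at least 2-fold. For the surface genes these were Col14a1 (r = 0.986), the unnamed ENSMUSG00000091207 (r = 0.986), Hist1h4d (r = 0.973), Cldn15 (r = 0.972) and Hist2h2ac (r = 0.971). Col14a1, a collagen of dense connective tissue, was at 73.7 and 60.9 RPKM in WT, 97.1 and 62.6 in mutant and 41.2 and 41.2 in Ribotag. Cldn15, a claudin that was also in the list of other mesothelial genes, was at 5.47 and 3.49 in WT, 5.64 and 4.73 in mutant and 2.49 and 1.92 in Ribotag. For the fold regulators they were Kcnn1 (r = 0.996), Tnfaip8l3 (r = 0.988), Proca1 (r = 0.982), Pygb (r = 0.980) and Cdhr4 (r = 0.978). Pygb, the brain form of glycogen phosphorylase, was at 31.5 and 35.8 in WT, 25.8 and 29.6 in mutant and 16.8 and 18.2 in Ribotag. The 6 libraries fall into 3 groups, which all of these genes share, and the likeness is given only as a description.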

How the data were processed

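RNA-Seq values of 6 libraries of E14.75 diaphragm muscle were used, in groups taken from the labels. The authors deposited RPKM per gene, with a mark for genes at a floor value that stands in place of 0. The submitters' processing notes name STAR and the build mm9. The program behind the RPKM, its annotation and its use of strand are not given in the sources used here. Transcripts annotated on the other strand over Gata6, Nr2f2 and Tcf21 could therefore share reads with them, and so could genes on the same strand within Zfpm2. Depth was read from floor values of microRNA genes. Read counts were not used, so counting error could not be computed.

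Symbols and positions came from GENCODE M21 on GRCm38, joined by Ensembl identifier (21583 matched, 1490 did not), and promoters from RefSeq on GRCm38.p6. Each comparison was fitted to its own 4 libraries, without a block, on log2(RPKM + 0.5) of genes whose mean RPKM reached 0.5. The fits used limma 3.58.1 in R 4.3.3 (functions lmFit and eBayes, the latter with its trend option), and p-values were adjusted by Benjamini-Hochberg over all genes, with a threshold of 0.05. The procedure was tested on simulated data. The labels number the replicates only, and the article describes them as different samples of diaphragm, with Ribotag samples from pooled litters.

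The genes and the lists were chosen with earlier results of these data known. Beside the 10 genes, those of other lists that passed the threshold and the 2 with the highest mean RPKM were to be named, and the text gives the mesothelial, connective tissue and retinoid ones. The settings varied were the pseudocount (0.1 or 1), the filter (none, or a mean of 1), the scaling (median-ratio or quantile), the trend (none), the libraries fitted (all 6, or each left out) and a replicate block for Ribotag and mutant. Figures were drawn with matplotlib 3.10.9.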

Additional observations from a re-analysis of the deposited data

How the results depend on the processing

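Differences of the 10 genes between mutant and WT stayed on the same side of the threshold in all 120 fits run. Of the fits for Ribotag against WT, 102 did and 17 moved past the threshold, mostly without a Ribotag library. Of those for Ribotag against mutant, 113 did, 9 moved past it and 7, all of Lrrn4, fell short of it. The number of genes called between mutant and WT was 24, and it was 0 without a filter and 0 with all 6 libraries in 1 fit (2155 and 495 at an unadjusted p under 0.05), and between 10 and 106 when 1 library was left out (10 without mutant 2, 106 without WT 5 and 90 without WT 6). For Ribotag against WT it was 1, and 0 without a filter (3921 unadjusted), 2 with median-ratio scaling, 138 with all 6 libraries, and between 26 and 5965 when 1 was left out (26 without WT 5, 67 without WT 6, 4482 without Ribotag 1 and 5965 without Ribotag 2). For Ribotag against mutant it was 171, and 112 without a filter, 83 with quantile normalization, 692 with all 6 libraries, and between 112 and 3672 when 1 was left out (112 without mutant 2, 2538 without Ribotag 1 and 3672 without Ribotag 2). A lone library is assumed there to vary like the remaining pair. Of the 171 genes 146 were higher and 25 lower, against 13 and 99 without a filter. With a replicate block for Ribotag and mutant 842 genes were called and Upk3b passed (adjusted p = 0.0420), while the other calls of the 10 genes did not change. The labels give these libraries a shared number, but they come from different litters, and whether they shared a preparation is not stated. Their deviations correlated at 0.168 over 14325 genes. Under other pseudocounts and scalings the contrast of the sets was between -0.42 and -0.36 for mutant against WT, between 0.07 and 0.12 for Ribotag against WT and between 0.46 and 0.50 for Ribotag against mutant. It was between -0.61 and -0.19 for mutant against WT, between -0.11 and 0.31 for Ribotag against WT and between 0.30 and 0.70 for Ribotag against mutant when 1 library was left out. With 2 libraries per group, replication limits these values.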
